A study of Mus musculus with 55 samples.

Results

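The de novo lipogenesis genes described here are 10 genes taken by symbol from the 37620 genes quantified in each liver. They are the enzymes Acly, Acaca, Fasn, Elovl6, Scd1 and Me1, the transcription factors Srebf1 and Mlxipl, and Thrsp and Pnpla3, whose products act on lipogenesis and on lipid droplets. All 10 were found. The rule takes them by name and not by a measured value, but the genes were chosen with earlier results of these data known. Levels are given in FPKM, fragments scaled for length and for the number of mapped fragments, a unit in which different genes can be compared. For a gene with several transcripts, the length used depends on how its fragments were divided among them. The level of such a gene therefore need not follow its fragments.

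The livers came from 55 naive male mice of 29 Collaborative Cross (CC) lines, which are recombinant inbred lines bred from 8 founder strains. There was 1 mouse in 8 lines, 2 mice in 16 lines and 3 mice in 5 lines, and the line is the only group that was compared. All mice were untreated, had chow and water freely, were 8 to 11.9 weeks old (median 9.1) and weighed 12.8 to 38 g (median 23 g). Polyadenylated RNA was sequenced, and 20.5 to 34.0 M fragments per mouse were assigned to genes (median 27.7 M).

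Some libraries stood apart from their labels or from the rest. Over the ranks of 11284 expressed genes, 41 of the 47 mice that had a line mate were most like a line mate (rho of 0.948 to 0.992 between line mates, IL-1052 and IL-2750 left out). The exceptions were the 5 mice labelled IL-1052 and IL-2750, and IL-2146 replicate 2. IL-1052 replicate 1 was most like IL-2750 replicates 1 and 3 (rho of 0.977 and 0.976), and IL-1052 replicate 2 was most like IL-2750 replicate 2 (rho of 0.968), while rho between the 2 mice labelled IL-1052 was 0.931. Results were therefore also computed without these lines. The single mouse of IL-1141 was as like IL-2146 replicate 2 (rho of 0.970) as that mouse was like its line mate, so IL-1141 and IL-2146 are not well separated as lines. The liver of IL-785 replicate 3 had 39.5 FPKM of Xist, the RNA of the inactive X chromosome, against at most 0.12 FPKM in all other livers, while the Y-linked genes Ddx3y (12.6 FPKM) and Eif2s3y (18.9 FPKM) lay within the range of the others. RNA of other tissues was seen in 6 livers. Adipoq, a hormone of fat cells, was at or above 0.5 FPKM in 4 of them, most in IL-1052 replicate 2 (8.82 FPKM), and Cpa1, a pancreatic enzyme, was at or above 1 FPKM in 2, most in IL-3575 replicate 2 (37.2 FPKM). The 5 hepatocyte markers summed to 17047 to 67506 FPKM in each liver. In whole tissue, fewer cells of a type and less RNA per cell cannot be told apart.

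De novo lipogenesis makes fatty acids from carbohydrate. Citrate that leaves the mitochondria is cleaved to acetyl-CoA, which is carboxylated to malonyl-CoA and built into palmitate with NADPH as the reductant, and palmitate is then elongated and desaturated. In the liver, feeding induces the genes of this route, through SREBP-1c in response to insulin and through ChREBP in response to glucose. Both factors act on the promoters of these genes together with general factors such as NF-Y, which binds CCAAT boxes.

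Promoter sequences are shown as a description of these genes, and their part in the correlations described further on was not tested. RefSeq promoters, from 250 bases before to 50 bases after a start on GRCm38.p6, were matched for 9 of the 10 genes (13 promoters). Both strands were searched. ATTGG, the inverted CCAAT box, was found in 8 of the 13 promoters (7 genes) and in 37.4% of all 32851 promoters. The E-box CACGTG was found in 1 of the 13, that of Mlxipl, and in 7.15% of all. The E-box CATGTG was found in 2, those of Me1 and Srebf1, and in 14.2% of all. AGGTCA was found in 2, those of Elovl6 and Acly, and in 16.3% of all, and CACCCCAC was found in 0 of the 13 and in 2.87% of all. The promoters of Fasn (chr11:120824498-120824797, minus strand), Srebf1 at its downstream start (chr11:60210422-60210721, minus strand), Mlxipl (chr5:135089640-135089939, plus strand) and Thrsp (chr7:97417501-97417800, minus strand) are given as those of the synthase and of the regulators, with the matches in capitals.
Fasn: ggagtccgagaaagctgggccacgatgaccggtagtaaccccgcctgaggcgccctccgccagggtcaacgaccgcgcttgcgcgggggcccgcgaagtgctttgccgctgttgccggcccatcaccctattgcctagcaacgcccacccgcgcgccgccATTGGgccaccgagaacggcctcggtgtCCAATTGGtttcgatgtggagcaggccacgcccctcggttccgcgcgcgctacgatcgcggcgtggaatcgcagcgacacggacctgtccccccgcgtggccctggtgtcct
Srebf1: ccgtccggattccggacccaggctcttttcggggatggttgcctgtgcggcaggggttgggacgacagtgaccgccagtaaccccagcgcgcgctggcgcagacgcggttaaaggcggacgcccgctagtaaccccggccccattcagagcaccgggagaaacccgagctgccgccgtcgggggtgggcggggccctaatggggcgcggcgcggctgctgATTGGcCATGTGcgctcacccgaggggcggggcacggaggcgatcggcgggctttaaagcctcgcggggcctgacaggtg
Mlxipl: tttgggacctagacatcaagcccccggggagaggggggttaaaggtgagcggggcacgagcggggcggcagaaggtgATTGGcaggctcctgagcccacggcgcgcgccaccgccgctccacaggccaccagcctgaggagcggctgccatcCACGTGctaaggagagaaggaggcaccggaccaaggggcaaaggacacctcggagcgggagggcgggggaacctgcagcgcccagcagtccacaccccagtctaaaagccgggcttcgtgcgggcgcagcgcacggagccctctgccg
Thrsp: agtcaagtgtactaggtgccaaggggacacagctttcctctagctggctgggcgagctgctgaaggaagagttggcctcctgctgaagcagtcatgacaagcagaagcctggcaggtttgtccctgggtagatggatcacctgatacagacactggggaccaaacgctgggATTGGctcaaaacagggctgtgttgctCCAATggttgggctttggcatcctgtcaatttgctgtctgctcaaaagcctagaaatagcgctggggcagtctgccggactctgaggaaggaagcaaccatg
In the Fasn promoter, the matches to ATTGG began 90, 62 and 59 bases before the start, and the last of these overlapped its neighbour on the other strand. In the Srebf1 promoter, ATTGG at 30 bases and CATGTG at 24 bases before the start lay close together. A match describes only the letters in this window.

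Acly, Acaca and Fasn carry out the steps from citrate to palmitate. Acly (mm9, chromosome 11, 100337667 to 100389314, minus strand), which cleaves citrate to acetyl-CoA, had 25.2, 51.0 and 153 FPKM in the lowest, the median and the highest of the 55 livers. Its level was high in both mice of IL-4457 (153 and 109 FPKM) and low in the single mouse of IL-557 (27.6 FPKM). The second mouse of IL-4457 is among the livers with Adipoq (0.54 FPKM). Among lines with several mice, it was lowest in IL-2011 (31.4 and 33.2 FPKM), which did not overlap with IL-4457, and the means of these lines differed 4.06-fold. Acaca (chromosome 11, 83943174 to 84215153, plus strand), which makes malonyl-CoA, was the lowest of these 3 enzymes, with 5.20, 10.8 and 23.2 FPKM. The 3 mice of IL-611 were close together and low (7.08, 7.13 and 6.93 FPKM), and the 2 mice of IL-3575 were higher and far apart (12.0 and 23.2 FPKM). Fasn (chromosome 11, 120667254 to 120685492, minus strand), the fatty acid synthase, had 20.2, 64.5 and 177 FPKM. It was highest in IL-4457 (177 and 136 FPKM, the second in the liver with Adipoq) and, among lines with several mice, lowest in IL-1513 (23.5 and 26.1 FPKM). These lines did not overlap, and their means differed 6.30-fold, from 24.8 ± 1.81 FPKM (SD, n = 2) to 156 ± 28.7 FPKM (SD, n = 2). Not scaled for depth, the fragments were 3103 and 4814 in IL-1513 and 20967 and 16628 in IL-4457. Transcripts annotated as retained introns held 24.4 and 27.0% of Fasn in the median liver. Its FPKM is therefore not that of coding RNA alone. Line mates of IL-3912 had 41.75 FPKM from 8584 fragments and 56.41 FPKM from 7093 fragments. In IL-3575, line mates had 29.1 and 175 FPKM of Fasn. The second of these is the liver with pancreas RNA, which also gave the higher Acaca of that line.

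Elovl6 and Scd1 elongate and desaturate the product. Elovl6 (chromosome 3, 129235304 to 129341413, plus strand), the elongase that acts on palmitate, had 4, 9.19 and 26.1 FPKM. Both mice of IL-219 were high (23.2 and 21.5 FPKM), and the 3 mice of IL-611 were low and close together (5.64, 5.77 and 5.73 FPKM). Scd1 (chromosome 19, 44468941 to 44482199, minus strand), the desaturase that makes oleate, was the most abundant of the 10 genes in the median liver, with 43.3, 475 and 3431 FPKM. Its fragments were partly divided by the quantification among similar sequences, since its expected counts were not whole numbers. Scd1 was highest in IL-3575 (1235 and 3431 FPKM, the second of which is the liver with pancreas RNA) and lowest in IL-785 (99.0, 239 and 43.3 FPKM, the last of which is the liver with Xist). The line means differed 18.3-fold. Without IL-3575 replicate 2 the highest line was IL-2680 (2269 and 432 FPKM, so that its mean rests on 1 mouse), and the ratio was 10.6-fold. Without IL-785 replicate 2, which had Adipoq, the ratio was 32.8-fold. The mean of IL-785 (127.22 FPKM) was close to the single mouse of IL-557 (127.3 FPKM). Without the liver with Xist, IL-557 was the lowest line, and the ratio was 18.3-fold. With the liver with pancreas RNA and the liver with Xist left out, 1 mouse of IL-3575 remained at 1235 FPKM, and the mean of IL-785 was 169 FPKM.

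Me1 (chromosome 9, 86474970 to 86589947, minus strand), the malic enzyme that supplies NADPH, had 14.6, 56.0 and 190 FPKM. All 3 mice of IL-611 were low (19.0, 14.6 and 25.0 FPKM). The 2 mice of IL-2680 were 190 and 70.8 FPKM, and this line had the highest mean, 6.68-fold above IL-611, without overlap. This rank rests on 1 mouse. Without IL-2680 replicate 1, that line was at 70.8 FPKM, and the highest line was IL-219 (114 and 97.1 FPKM), 5.40-fold above IL-611.

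Srebf1 encodes SREBP-1 and Mlxipl encodes ChREBP. Srebf1 (chromosome 11, 60012591 to 60036083, minus strand) had 11.6, 34.0 and 103 FPKM. It was high in IL-2146 (103 and 55.0 FPKM) and in the single mouse of IL-1141 (95.6 FPKM), and low in IL-1513 (11.6 and 16.2 FPKM), which did not overlap with IL-2146. Mlxipl (chromosome 5, 135582761 to 135614254, plus strand) had 20.6, 38.6 and 67.4 FPKM, the narrowest range of the 10 genes as a ratio of the highest to the lowest liver. It was also highest in IL-2146 (67.4 and 59.3 FPKM).

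Thrsp (chromosome 7, 104561448 to 104566240, minus strand), known as Spot 14 and induced by thyroid hormone and feeding, had 28.0, 235 and 1086 FPKM. It was high in IL-2146 (793 and 1048 FPKM) and low in IL-2011 (64.6 and 40.4 FPKM). The means of these lines differed 17.5-fold. IL-2146 was therefore high for Srebf1, Mlxipl and Thrsp, while its Fasn (74.2 and 73.3 FPKM) was near the median.

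Pnpla3 (chromosome 15, 83998246 to 84019942, plus strand), a lipid droplet protein related to lipases, was barely detected in most livers. It was under 1 FPKM in 48 of 55 livers and at 0 in 1 of them, with a median of 0.18 FPKM, or 25 fragments. The single mouse of IL-2126 had 16.1 FPKM (1520 fragments). The next highest were IL-2680, with 7.23 and 0.390 FPKM, IL-3438, with 5.57 and 0.30 FPKM, and IL-219, with 5.20 and 2.95 FPKM. In IL-2680 and IL-3438, 1 mouse was high and its line mate was under 1 FPKM.

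**Figure D1:**
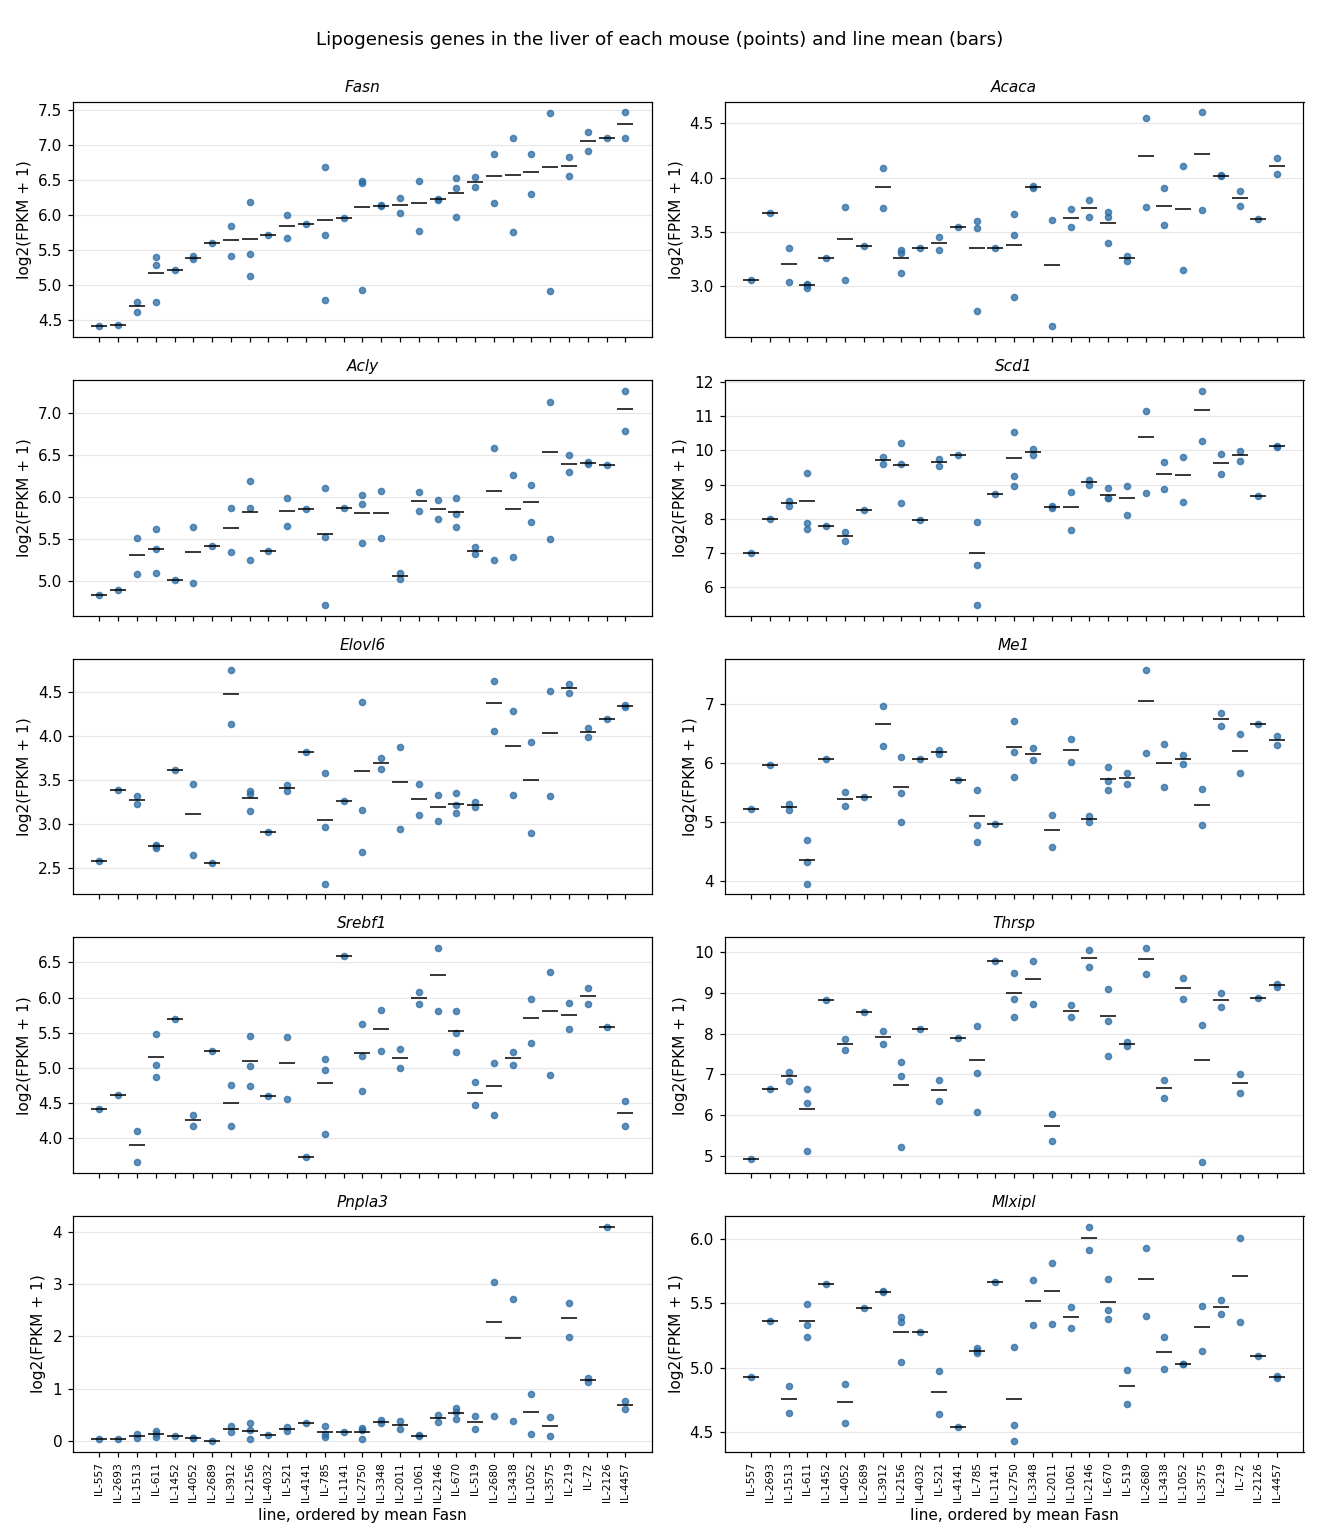
Level of each gene, as log2(FPKM + 1), in each of the 55 livers (points) and the line mean (bars), with the 29 lines ordered in every panel by mean Fasn. Line means of Acly rise along this order more than those of Mlxipl (r with Fasn of 0.831 and 0.149), and Pnpla3 is near 0 except in a few livers.

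Differences among lines were tested in the 21 lines that had 2 or 3 mice (47 mice). All 10 genes differed (edgeR quasi-likelihood F test, adjusted p from 1.45e-06 for Pnpla3 to 0.00539 for Acly). This was also true of 88.5% of the 15285 genes tested, so the count does not set these genes apart. Acly did not pass without IL-4457 (adjusted p = 0.0968 in edgeR). This line drops out of the test when either of its mice is left out. Acly also did not pass when the 6 livers with fat or pancreas RNA were left out (adjusted p = 0.0999 in edgeR), where IL-4457 drops out too. In each case 9 genes were left. Replicates are separate mice of a line.

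How much of the variation lay between lines was measured by the intraclass correlation (ICC), which is 1 when line mates are identical. It passed the permutation test for 9 of the 10 genes, against 86.5% of 11284 genes. The ICC was highest for Thrsp (0.710), followed by Me1 (0.686), Pnpla3 (0.659), Mlxipl (0.656), Srebf1 (0.625) and Scd1 (0.60). It was 0.451 for Fasn, 0.396 for Elovl6, 0.390 for Acaca and 0.299 for Acly, which did not pass (adjusted p = 0.0697 by permutation). The median ICC was 0.612 over the 10 genes and 0.554 over all genes. Pnpla3 had only 9 distinct levels after binning, and the 48 of 55 livers under 1 FPKM shared its lowest bins. The paper excluded traits with fewer than 12 levels, and no such limit was set for the genes here. With each mouse left out in turn, the ICC of Acly ran from 0.217 to 0.405, and it passed in 7 of the 55 cases, the highest being without IL-785 replicate 3. Without the 6 livers with fat or pancreas RNA it was 0.219 (permutation p = 0.180). With only the transcripts annotated as coding, the ICC was 0.351 for Fasn, 0.405 for Acaca and 0.313 for Acly. It was then 0.604 for Srebf1 and 0.617 for Mlxipl, and all genes but Acly passed.

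Few lines that were neighbours in the order of means could be told apart. Of the 20 neighbouring pairs of lines with several mice, the mice did not overlap in 4 pairs for Scd1, in 2 pairs each for Fasn, Acaca and Elovl6, in 1 pair each for Srebf1, Pnpla3 and Mlxipl, and in 0 pairs for Acly, Me1 and Thrsp. This was 13 of 200 pairs in all (6.5%), and over all expressed genes 7.56% of such pairs did not overlap.

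The lines with the highest and lowest means are described by how many of the 10 genes they rank high or low for, beside the share of all expressed genes for which the same line ranks so. IL-4457 was among the 5 highest of the 29 lines for 7 of the 10 genes and for 20% of all genes, IL-2680 for 7 and 22.6%, and IL-219 for 6 and 20.6%. IL-2126, with a single mouse, was among them for 5 (32.8% of all genes), IL-3575 for 5 (20.6%) and IL-72 for 5 (19.2%). Some of these counts rest on 1 mouse. The count of IL-2680 was 2 without its replicate 1, and that of IL-3575 was 1 without its replicate 2, the liver with pancreas RNA. The count of IL-4457 stayed at 7 when either of its mice was left out, of which replicate 2 had Adipoq. IL-557, with a single mouse, was among the 5 lowest for 8 genes (15.7% of all genes), IL-1513 for 6 (15.3%) and IL-611 for 5 (14.1%). Without its replicate 1, IL-1513 was among them for 3. These shares carry no test. IL-4457 was high for all 6 enzymes and Thrsp, and yet among the 5 lowest for Srebf1 (21.9 and 17.1 FPKM), though not without its replicate 2. IL-1141 and IL-2146 were among the 5 highest for Srebf1, Thrsp and Mlxipl and among the 5 lowest for Me1, and these are the lines whose livers were nearly as alike as line mates.

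Correlation between lines was computed over the 29 line means of log2(FPKM + 1), with Pearson's r and Spearman's rho, and adjusted over 112785 pairs of one of these genes with any expressed gene. Of the 45 pairs among the 10 genes, 43 had a positive r, and the median r was 0.442, against 0.0309 over pairs with any other gene. After adjustment 10 of the 45 passed, all positive, and 10 passed by rho. Of the pairs with other genes, 0.299% passed with a positive and 0.178% with a negative r. At an unadjusted p under 0.05 by permutation, 27 of the 45 passed, all positive, against 8.08% of other pairs that were positive and 5.36% that were negative.

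Most of the 10 pairs linked enzymes. Fasn and Acly had the largest r (r = 0.831, adjusted p = 0.0154, rho = 0.791, adjusted p = 0.0201, both by permutation), and r was 0.777 without the 2 lines farthest from the median of Fasn. Acaca and Elovl6 came next (r = 0.785, adjusted p = 0.0154, rho = 0.698, adjusted p = 0.0409, both by permutation), with r of 0.767 without the 2 farthest lines. The other pairs of enzymes were Acly with Scd1 (r = 0.715, rho = 0.705), Elovl6 with Me1 (r = 0.713, rho = 0.699), Acaca with Acly (r = 0.706, rho = 0.687), Acaca with Scd1 (r = 0.706, rho = 0.669), Scd1 with Elovl6 (r = 0.698, rho = 0.753) and Acly with Elovl6 (r = 0.661, rho = 0.607). Their adjusted p for r lay between 0.0154 and 0.0340 by permutation, and r without the 2 farthest lines between 0.566 and 0.708. The transcription factors Srebf1 and Mlxipl also correlated (r = 0.664, adjusted p = 0.0391, rho = 0.610, adjusted p = 0.0938, both by permutation), with r of 0.582 without the 2 farthest lines. This pair did not pass when the single mouse of IL-1141, the single mouse of IL-4141 or IL-2750 replicate 1 was left out, where r was between 0.608 and 0.687 over all mice left out in turn. Elovl6 with Pnpla3 was the last (r = 0.607, adjusted p = 0.0445, rho = 0.684, adjusted p = 0.0439, both by permutation), with r of 0.614 without the 2 farthest lines. For Fasn with Pnpla3, rho passed and r did not (r = 0.606, adjusted p = 0.0638, rho = 0.896, adjusted p = 0.0201, both by permutation). Over line means, Pnpla3 had r of 0.451 with age and -0.488 with depth, and Elovl6 had r of 0.395 with age. With age or depth as a covariate, 9 and 11 of the 45 pairs passed.

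Which pairs passed depended on the lines. Without the 6 livers with fat or pancreas RNA, 7 pairs passed, and the 3 that were lost all involve Scd1, where r went from 0.706 to 0.612 with Acaca, from 0.698 to 0.617 with Elovl6 and from 0.715 to 0.584 with Acly. Without the single mouse of IL-557 7 passed, without IL-3575 replicate 2 12 passed, and without IL-785 replicate 3 10 passed. Without IL-1052 and IL-2750, 9 passed. Over the 21 lines with several mice alone, 0 passed, and r of Fasn with Acly was 0.727.

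Correlation within lines was computed over the deviations of the 47 mice from their line means, with mice permuted within lines. In a line with 2 mice the deviations are equal and opposite, so the 47 points are not independent of each other. All 45 pairs had a positive r, from 0.239 to 0.854 (median 0.545), against a median of 0.125 over pairs with any other gene. At an unadjusted p under 0.05 by permutation, 37 of the 45 passed, all positive, against 9.86% of other pairs that were positive and 0.858% that were negative. After adjustment 1 of the 45 passed, Acly with Mlxipl (r = 0.608, adjusted p = 0.0418, rho = 0.699, adjusted p = 0.0403, both by permutation), against 0.0231% of other pairs that were positive. Its r was 0.591 without the 2 farthest mice, and its p, 1e-05, is the smallest that the 100000 permutations can give. A pair had to reach that smallest p to pass within lines, so this count is limited by the number of permutations.

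A larger r than that of this pair did not pass in 18 other pairs, of which the 4 largest were Acaca with Elovl6 (r = 0.854, rho = 0.770), Fasn with Acly (r = 0.819, rho = 0.712), Acly with Srebf1 (r = 0.799, rho = 0.803) and Acly with Thrsp (r = 0.778, rho = 0.688). Their adjusted p for r were 0.167, 0.116, 0.0644 and 0.0822 by permutation. By rho, Acly with Srebf1 passed too (adjusted p = 0.0403 by permutation). The count of pairs was 0 without IL-1052 and IL-2750, 0 without IL-219 replicate 2, 2 without IL-4052 replicate 2 and 2 without IL-2126, whose single mouse takes no part within lines. The last value differs from 1 because the permutations were drawn anew. The call of Acly with Mlxipl was lost on leaving out 26 of the 47 mice in turn, with r between 0.550 and 0.665, and these p also vary with the permutations drawn.

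**Figure D2:**
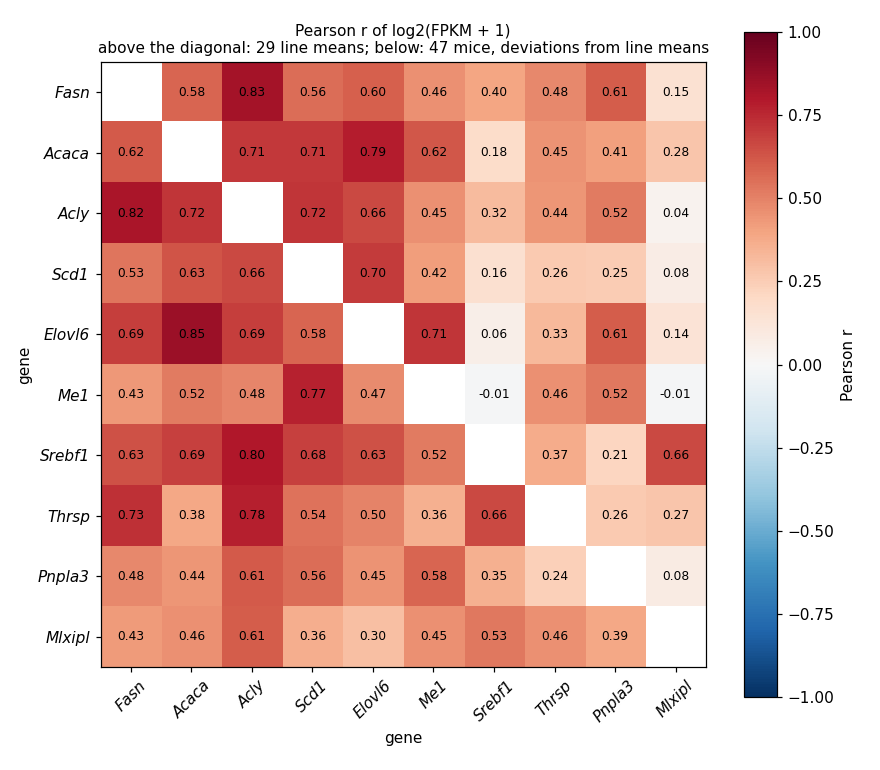
Pearson r of log2(FPKM + 1) for the 45 pairs of genes, with r over 29 line means above the diagonal and r over the deviations of 47 mice from their line means below it. All values below the diagonal are positive, and those of Srebf1 with the 6 enzymes are -0.0112 to 0.396 above the diagonal and 0.517 to 0.799 below it.

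Srebf1 had low r with the enzymes between lines and higher r within lines. Between lines, r of Srebf1 was 0.320 with Acly, 0.182 with Acaca, 0.163 with Scd1, 0.0595 with Elovl6, -0.0112 with Me1 and 0.396 with Fasn. Within lines the same pairs had r of 0.799, 0.687, 0.683, 0.634, 0.517 and 0.634. Over its 9 partners the median r was 0.212 between and 0.634 within lines. Mlxipl had a median r of 0.139 between and 0.454 within lines. The difference between the levels was not tested.

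**Figure D3:**
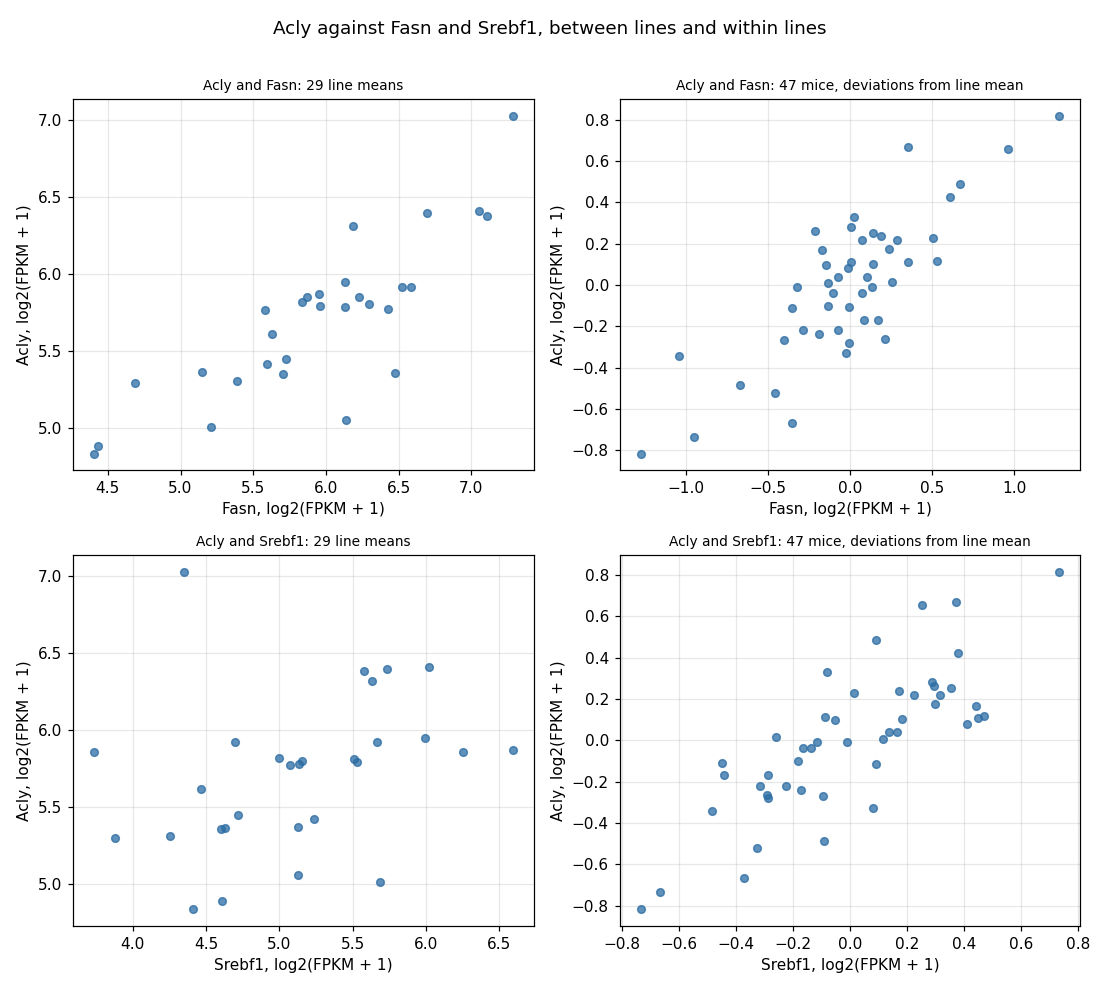
Acly against Fasn (upper row) and against Srebf1 (lower row), both as log2(FPKM + 1), over 29 line means (left) and over the deviations of 47 mice from their line means (right). For Fasn r is 0.831 and 0.819, and for Srebf1 it is 0.320 and 0.799.

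Srebf1 is transcribed from an upstream start, which gives SREBP-1a, and from a downstream start, which gives SREBP-1c, the main form in liver. Its transcripts were grouped by their annotated start on mm9. In the lowest, the median and the highest liver, the 3 transcripts of the downstream start (chromosome 11, 60023856 to 60023967) held 38.7, 64.3 and 75.8% of the gene. The 3 transcripts of the upstream starts (60034106 to 60036083) held 6.94, 17.0 and 37.6%, and 8 shorter ones that begin further inside the gene held 9.96, 18.8 and 37.3%. The downstream start held the largest share in all 55 livers. Its share was lowest in IL-3912 (44.6 ± 4.5%, SD, n = 2) and highest in the single mouse of IL-557 (75.8%). The downstream transcripts had 19.7 FPKM in the median liver and the upstream ones 6.09 FPKM.

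The FPKM of the start groups were set beside the other genes. Within lines the downstream group had r of 0.825 with Acly, 0.729 with Thrsp and 0.694 with Scd1. The upstream group had r of 0.224, -0.0740 and 0.250 with the same genes. For Fasn r was 0.629 downstream and 0.129 upstream. The groups were closer for Acaca (0.650 downstream and 0.508 upstream) and Mlxipl (0.493 and 0.430). Over the 9 other genes, r within lines ran from 0.355 with Pnpla3 to 0.825 with Acly for the downstream group and from -0.0740 with Thrsp to 0.508 with Acaca for the upstream group. Between lines the downstream group had r of 0.313 with Acly, 0.360 with Thrsp and 0.120 with Scd1, and the upstream group 0.197, 0.268 and 0.192. With Acaca between lines, r was 0.124 downstream and 0.317 upstream. These r describe 47 mice and 29 lines, carry no test, and rest on estimates that divide the same fragments among transcripts.

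**Figure D4:**
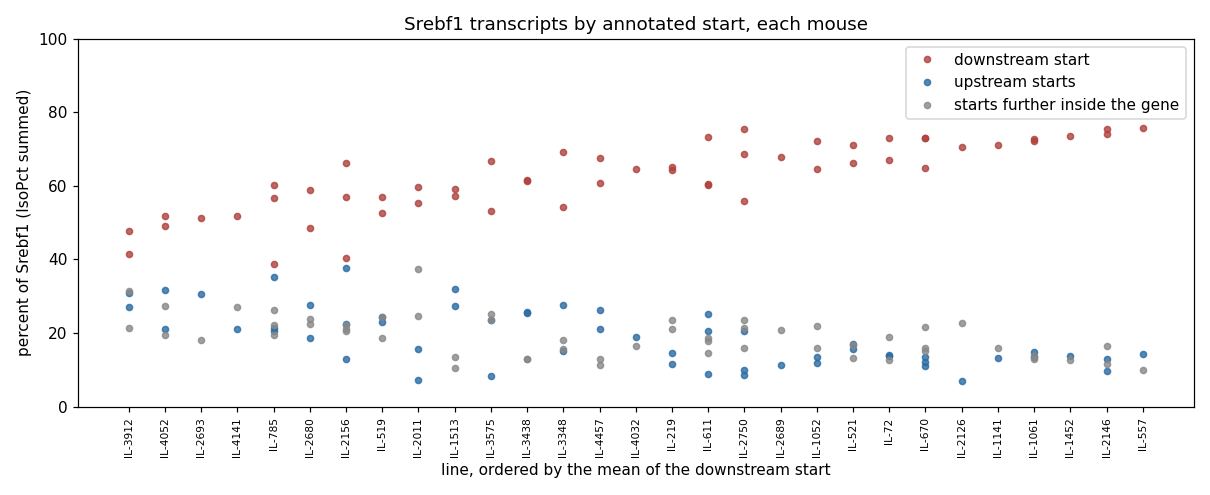
Percent of Srebf1 assigned to transcripts of the downstream start, of the upstream starts and of starts further inside the gene, in each of the 55 livers (points), with the 29 lines ordered by the mean share of the downstream start. The downstream start, between 38.7 and 75.8%, lies above the other groups in every liver.

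The share of a single transcript was also compared among lines for the 5 genes that had a ratio with enough distinct levels. The ICC passed for 2 of the 5, against 26.2% of 6652 ratios tested. These were Srebf1 transcript ENSMUST00000064158 (ICC = 0.590, adjusted p = 0.00558 by permutation), which held 3.70 to 56.0% of the gene, and Mlxipl transcript ENSMUST00000005507 (ICC = 0.445, adjusted p = 0.0408 by permutation), which held 3.14 to 51.0%. The lowest value of the latter was that of the single IL-2126 mouse, without which 1 ratio passed. The ratio of Mlxipl crossed the threshold on leaving out 18 of the 55 mice in turn. The coding transcript of Fasn held 30.9 to 74.5% of the gene (median 47.4%) and that of Acly chosen here 13.6 to 79.9%, and neither passed. With coding transcripts only, 11 pairs of genes passed between lines, and 1 passed within lines, which was Acly with Srebf1 in place of Acly with Mlxipl. Within lines, r of Acly with Mlxipl was then 0.411 (permutation p = 0.0178), against 0.608 with all transcripts. For Acly with Srebf1, r was then 0.818.

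The number of other genes that passed with each gene between lines differed widely. Positive partners were 147 (1.3%) of 11283 genes for Mlxipl, 58 (0.514%) for Srebf1, 53 (0.47%) for Thrsp, 25 (0.222%) for Elovl6, 21 (0.186%) for Acly, 14 (0.124%) for Acaca, 12 (0.106%) for Scd1, 11 (0.0975%) for Fasn, 10 (0.0886%) for Pnpla3 and 6 (0.0532%) for Me1. Negative partners were 114 (1.01%) for Thrsp, 41 (0.363%) for Srebf1, 21 (0.186%) for Mlxipl, 12 (0.106%) for Fasn, 7 (0.062%) for Acly, 3 (0.0266%) for Elovl6, 1 each (0.00886%) for Acaca, Me1 and Pnpla3, and 0 for Scd1. The regulators Mlxipl, Srebf1 and Thrsp thus had the most partners, and Thrsp had more negative than positive ones. Within lines the positive partners were 10 (0.0886%) for Mlxipl, 9 (0.0798%) for Acly, 4 (0.0355%) for Srebf1, 2 (0.0177%) for Scd1, 1 each (0.00886%) for Acaca, Elovl6 and Me1, and 0 for Fasn, Thrsp and Pnpla3, and there were 0 negative ones.

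Among the genes outside the 10, those most like each of them, by r over the 29 line means, are given as a description, and a pair within the 10 can have a larger r. For Fasn they were Mvd (r = 0.733, rho = 0.686), an enzyme of cholesterol synthesis, Chrna4 (r = 0.683, rho = 0.672) and Mob3a (r = 0.680, rho = 0.629). For Scd1 they were Pmvk (r = 0.689, rho = 0.734), also of cholesterol synthesis, Tlcd1 (r = 0.675, rho = 0.742) and Chrna4 (r = 0.668, rho = 0.778). Among these other genes, Tlcd1 was also the first for Acly (r = 0.740, rho = 0.700), and it was above the threshold with Acly within lines (r = 0.781, adjusted p = 0.0418 by permutation). Lgals1, a galectin, was the first for Acaca (r = 0.742, rho = 0.655) and the second for Elovl6 (r = 0.717, rho = 0.713), after Dnajb2 (r = 0.718, rho = 0.655) and before Aacs (r = 0.716, rho = 0.725), which makes acetoacetyl-CoA for lipid synthesis.

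For the regulators, the first genes were Anks4b for Srebf1 (r = 0.794, rho = 0.826), Parp1 for Mlxipl (r = 0.802, rho = 0.774) and Tsku for Thrsp (r = 0.792, rho = 0.788). Thrsp was followed by Sds (r = 0.781, rho = 0.778), which degrades serine, and by the clock gene Per3 (r = 0.771, rho = 0.792). For Me1 the first gene outside the 10 was Cflar (r = 0.649, rho = 0.667). For Pnpla3 the first was Cyp2b13 (r = 0.831, rho = 0.259), which had 105 FPKM in the IL-2126 mouse and at most 2.51 FPKM in the others. The second was Hao2 (r = 0.830, rho = 0.243), with 11.9 FPKM there and at most 6.76 FPKM in the others, and the third was Cyp2d34 (r = 0.809, rho = 0.511), with 2.85 FPKM there and up to 3.42 FPKM elsewhere. Without IL-2126, r with Pnpla3 was 0.488 for Cyp2b13, 0.588 for Hao2 and 0.795 for Cyp2d34. Among the 10 genes, r of Pnpla3 between lines without IL-2126 was 0.609 with Fasn, 0.677 with Elovl6, 0.597 with Acaca and 0.441 with Scd1.

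Genes of neighbouring routes were compared with Fasn, as the synthase of the route. All 85 of the 85 genes tested in 8 lists differed among lines by edgeR, where 88.5% of all genes did. Of 15 genes of the cholesterol list, 2 passed with Fasn between lines, Mvd (r = 0.733, adjusted p = 0.0154 by permutation) and Lss, the lanosterol synthase (r = 0.638, adjusted p = 0.0445 by permutation), against the 0.0975% of all genes given above. The median r with Fasn was 0.542 over this list and -0.0288 over all genes. Pmvk (r = 0.625) did not pass.

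In the other lists 0 genes passed with Fasn between lines. The median r was 0.374 over 9 genes of substrate and NADPH supply, 0.344 over 9 of glucose use, 0.334 over 11 of fatty acid synthesis and modification and 0.146 over 7 of triglyceride assembly. Tkt, the transketolase (r = 0.624, adjusted p = 0.0514 by permutation), did not pass. The median r was 0.0519 over 11 regulators, -0.216 over 11 genes of the fasting and feeding state and -0.114 over 10 clock genes. Some list genes passed between lines with a gene of the 10 other than Fasn. Of the clock genes, Per1, Per2, Per3, Dbp and Tef passed positively with 1 each, and Arntl and Clock negatively with 1 each. Cry1, Nr1d1 and Nr1d2 passed with 0. Tkt, Pklr and Dgat2, of other lists, passed positively with 1 each. Of all pairs with other genes, 0.299% passed with a positive and 0.178% with a negative r. The median ICC was 0.737 over the clock genes and 0.554 over all genes. Within lines 0 list genes passed with Fasn, as did 0 of all genes, and the median r was 0.591 for cholesterol synthesis, 0.514 for substrate supply, 0.484 for glucose use and 0.0920 over all genes. Of the 11 regulators, 1 passed with Srebf1 between lines, Mid1ip1, a relative and partner of Thrsp (r = 0.664, adjusted p = 0.0448 by permutation).

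Body weight was compared with each gene between and within lines. Between lines 0 of the 10 genes passed after adjustment over 11284 genes, as did 0 of all genes. At an unadjusted p under 0.05, 1 of the 10 passed, Scd1, against 3.26% of all genes that were positive and 4.8% that were negative. For Scd1 r was 0.422 (permutation p = 0.0222, adjusted p = 0.592) and rho was 0.443 (permutation p = 0.0169, adjusted p = 0.737). Without IL-785 and IL-4457, the lines farthest from the median weight, r was 0.245. The other 9 genes had r from -0.0823 for Srebf1 to 0.272 for Acly. Without the 6 livers with fat or pancreas RNA, r was 0.475 for Scd1 (permutation p = 0.00941) and 0.417 for Acly (permutation p = 0.0253), both unadjusted.

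Within lines 0 of the 10 genes passed after adjustment, as did 0 of all genes, and all 10 r were positive, from 0.199 for Mlxipl to 0.552 for Me1. At an unadjusted p under 0.05, 4 of the 10 passed, against 3.47% of all genes that were positive and 1.68% that were negative. These were Me1 (r = 0.552, permutation p = 0.00317, rho = 0.464, permutation p = 0.0149), Scd1 (r = 0.471, permutation p = 0.0158, rho = 0.430, permutation p = 0.0242), Acly (r = 0.378, permutation p = 0.0471, rho = 0.457, permutation p = 0.0218) and Acaca (r = 0.242, permutation p = 0.0456, rho = 0.298, permutation p = 0.0769). Their adjusted p for r was 0.952 in each case. Without the livers with fat or pancreas RNA, only Me1 and Scd1 passed at an unadjusted p under 0.05. For Me1 r was then 0.596 (permutation p = 0.00401) and for Scd1 it was 0.563 (permutation p = 0.0164). For Acly r was then 0.387 (permutation p = 0.138) and for Acaca it was 0.264 (permutation p = 0.0969). Without the 2 mice of IL-2156 whose weights were farthest from the median deviation, r was 0.439 for Me1, 0.376 for Scd1, 0.404 for Acly and 0.364 for Acaca. Of the 16 lines with 2 mice, the heavier mouse had the higher level in 12 for Fasn and for Acly, in 11 for Scd1, in 10 for Me1 and in 9 for Acaca. The liver with Xist came from the lightest mouse (12.8 g), and without it r within lines was 0.533 for Me1 and 0.441 for Scd1.

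**Figure D5:**
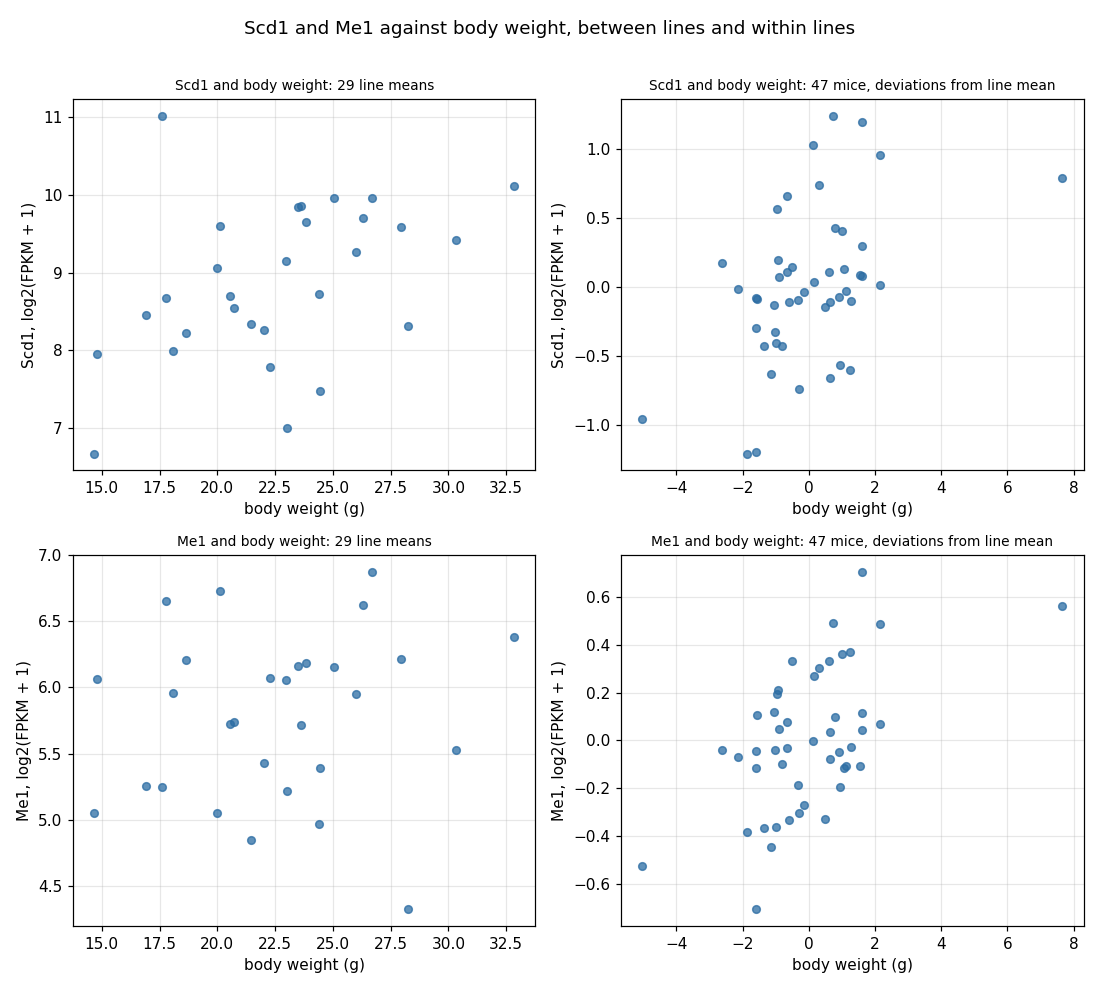
Scd1 (upper row) and Me1 (lower row), as log2(FPKM + 1), against body weight in g, over 29 line means (left) and over the deviations of 47 mice from their line means (right). For Scd1 r is 0.422 and 0.471, for Me1 it is 0.121 and 0.552, and none of these passed after adjustment.

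Markers of other cells were set beside these values, over the same 47 deviations and with no test. These sums of FPKM weigh the most abundant marker of a list most. Fabp4 had a median of 8.40 FPKM where the adipocyte sum had 10.2 FPKM. Spp1 had 25.1 FPKM where the cholangiocyte sum had 27.5 FPKM, and Alb 31174 FPKM where the hepatocyte sum had 46294 FPKM. IL-2156 replicate 1 had an adipocyte sum of 94.4 FPKM but is not among the livers with Adipoq at or above 0.5 FPKM. The 7 adipocyte markers summed to between 2.18 and 198 FPKM, with Adipoq at 0 in 31 of 55 livers, and their sum had r within lines of 0.522 with Scd1, 0.371 with Acaca and 0.140 with Fasn. The 6 pancreas markers summed to between 0 and 338 FPKM, with Cpa1 at 0 in 43 of 55 livers, and their sum had r of 0.522 with Thrsp, 0.438 with Fasn and 0.401 with Srebf1. The sum of the hepatocyte markers had r of 0.541 with Mlxipl and 0.435 with Acly, the pair that passed within lines. That pair also passed without the 6 livers with fat or pancreas RNA (r = 0.582), and the part of the hepatocyte markers was not tested. The 6 endothelial and stellate markers, all found, summed to between 19.3 and 143 FPKM, with r within lines from -0.182 with Mlxipl to 0.507 with Elovl6. Between lines their sum had r of -0.465 with Srebf1. The 5 cholangiocyte markers summed to between 6.50 and 208 FPKM, with r within lines from -0.477 with Elovl6 to 0.0564 with Mlxipl. The 6 Kupffer cell and macrophage markers summed to between 10.4 and 279 FPKM, with r within lines from -0.167 with Me1 to 0.196 with Elovl6. The part of these cells in the correlations was not tested.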

How the data were processed

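Livers of 55 mice were grouped by the strain label, and replicates were numbered in accession order. The labels name no sequencing batch. The genes and lists were chosen with earlier results of these data known. The authors aligned reads to mm9 with Bowtie 2 and quantified them with RSEM 1.2.18 on an Ensembl annotation. The expected counts deposited are estimated fragments per gene, not normalized. RSEM divided them by length and depth to give the FPKM and TPM that the authors deposited. For a gene with several transcripts, this length depends on the estimated share of each. The authors also deposited the share of each transcript in its gene, in percent. Symbols were matched for 98.9% of 37620 gene identifiers, and positions on mm9 are from GENCODE.

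Rounded expected counts were tested with edgeR 4.0.16 (TMM, filterByExpr, trended dispersion, quasi-likelihood F test, Benjamini-Hochberg). The ICC was computed on van der Waerden scores of FPKM in bins of 0.5 FPKM, or of the maximum divided by 200 where that is larger, with a one-sided permutation of line labels. Genes with a maximum FPKM of at least 2 were kept, and 1 transcript ratio per gene with at least 12 levels. Correlations used log2(FPKM + 1) and two-sided permutation tests. Each permutation test drew 100000 permutations, and adjusted p under 0.05 passed. Named genes are the 10 genes, the 3 genes with the highest r over line means for each, and the list genes, of which some are not reported here. Alternatives were DESeq2 1.42.0, limma 3.58.1, no filter, TPM, a pseudocount of 0.1, Spearman's rho, untransformed values, another isoform, age or depth as a covariate, other sets of lines and each mouse left out. Leaving out livers with fat or pancreas RNA, using coding transcripts only, ranking lines with a mouse left out and leaving IL-2126 out for Pnpla3 were added after seeing the data. These, and the results with a mouse left out, were judged by the unadjusted p at which the reported result passed, except for edgeR. The code was tested on simulated data.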

Additional observations from a re-analysis of the deposited data

How the results depend on the processing

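Of the counts recomputed under the alternatives, 60 stayed within 1.5 times the reported count and 14 did not, and no direction reversed. The 10 pairs between lines became 6 with no filter on low values and 0 over the 21 lines with several mice, and were 7 to 12 with each mouse left out. The 1 pair within lines became 9 with TPM, 3 with depth as a covariate, 2 with Spearman's rho, 0 with no filter and 0 without IL-1052 and IL-2750, and was 0 to 2 with each mouse left out. The 2 isoform ratios became 1 with untransformed percentages and 1 without the livers with fat or pancreas RNA, and were 1 to 3 with each mouse left out. The 2 list genes that passed with Fasn between lines became 1 without IL-1052 and IL-2750 and 1 with Spearman's rho. With no filter more genes enter the adjustment, and with fewer lines or mice there are fewer points. For the other settings, the cause was not tested. The 10 genes that differed among lines were 9 to 10 with each mouse left out, where a line left with 1 mouse dropped out of the edgeR test. The 9 genes with a share of variance between lines were 8 to 10 over all alternatives, and the counts for body weight were 0 in all of them. Pnpla3, with 25 fragments in the median liver, is limited by depth. No paired analysis was possible because the labels carry no replicate numbers shared between lines.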
